A study of Mus musculus with 17 samples.

Results

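Bex1, Gda, Csn2, Cracdl, Lztfl1, Mmd, Grtp1, Cttn, Asb2 and Hic1 are 10 mouse genes that were higher with retinoic acid when CD4 T cells were cultured with dendritic cells. They were picked for that difference from earlier results on these same arrays, so their levels in that comparison are given here as a description with no test. The platform's gene table assigns 24 of the array's 45101 probe sets to them, and they are 10 of the 18194 genes that have a probe set of their own. All 10 passed the filter on low values in the co-culture experiment and 9 of 10 passed it in the memory cell experiment, Cracdl being the exception. As background, most of them are better known outside immunity, but Hic1 and Lztfl1 have both been described in T cells exposed to retinoic acid, so they are called here the retinoic acid risers of the co-culture.

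The series holds 17 Affymetrix M430v2 arrays in 8 groups, each array carrying RNA pooled from 3 male mice aged 6 to 10 weeks and amplified through a pair of rounds. For the co-culture, CD4+ Foxp3- T cells from the spleens of C57BL/6 mice with a Foxp3/GFP reporter were kept for 5 days with dendritic cells, 10 T cells to 1 dendritic cell, and all cultures received anti-CD3 at 1 µg/ml, TGFbeta at 0.6 ng/ml and IL-2 at 5 ng/ml. The dendritic cells came from spleen with retinoic acid at 100 nM (Sp-DC plus RA), from the intestinal lamina propria with none added (LP-DC), or from spleen with none added (Sp-DC), and each culture was sorted afterwards into GFP+ (Foxp3+) and GFP- (Foxp3-) cells. Each co-culture group has 2 arrays, except that Sp-DC plus RA Foxp3- cells have 1 array here, which carries the number 2. For the memory experiment, CD44hi CD62L- CD25- CD4+ cells of C57BL/6 mice were cultured for 48 h with naive CD4 cells, 2 memory cells to 1 naive cell, with anti-CD3/CD28 beads, IL-2 at 20 U/ml and TGFbeta at 10 ng/ml, with or without retinoic acid at 100 nM, and were sorted back by a congenic CD45 marker (3 arrays each). The groups without added retinoic acid are therefore not untreated cells, since every culture contained TGFbeta and a T cell receptor stimulus. The labels do not say whether arrays of a group came from separate cultures, so p-values measure the spread between these arrays. A pooled, sorted population cannot tell a change in RNA per cell from a change in the share of cells that hold it.

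As background, retinoic acid is made from vitamin A by retinaldehyde dehydrogenases and acts by binding retinoic acid receptors, which sit on DNA as pairs with retinoid X receptors and turn transcription of nearby genes up. Some dendritic cells of the gut make retinoic acid, and T cells activated near it take on gut-homing receptors and, with TGFbeta, more often express Foxp3, which directs the regulatory T cell programme. The receptors recognise pairs of a short half-site, and genes of retinoid metabolism such as Cyp26b1 and Dhrs3 are among the usual early targets.

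The T cell markers on the list for the sorted cells (Cd3e, Cd4 and others, 4 of 5 measured) were above the array median on every array, with Cd3e between 9.9 and 11.9 on the log2 scale. Of the 5 epithelial markers, Krt8, Krt18 and Vil1 lay below the array median on every array of both experiments. The other two did not, Cdh1 reaching 8.64 in Sp-DC Foxp3- cells and Epcam reading 7.49 and 7.18 in Sp-DC plus RA Foxp3+ cells, against 6.2 and 6.6 in Sp-DC Foxp3+ cells. Of the 9 dendritic cell markers measured, Itgax, Xcr1 and Cd209a lay below the array median on every array of both experiments. The others, among them Cst3, Flt3 and Cd74, did not. H2-Ab1, the class II chain that dendritic cells carry, lay between 8.9 and 10.8 in the co-culture and between 5.7 and 8.0 in the memory cells. Array medians lay between 5.88 and 5.98, which serves as a mark of how far a probe set stands above the bulk of the array. RMA values are never 0, so no marker was listed at 0.

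The start of each gene was searched for retinoic acid receptor half-sites, since the members were chosen for moving together with the ligand. RefSeq windows of 300 bases (250 before to 50 after the start, build GRCm38.p6) were given for 9 of the 10 genes, 11 windows in all, and for Cttn none was given. The letters searched on both strands were AGGTCA, with GGGTCA as its first-base variant, and AGTTCA, with GGTTCA as the like variant of that, and 4 of 11 windows held 1 match each, against 43.7% of 32851 windows of all genes. Direct repeats of those letters with 1, 2 or 5 bases between them were in 0 of 11 windows, and in 0.222%, 0.268% and 0.0974% of all windows. The windows of the 4 genes that the results below turn on are shown 5′ to 3′ along the gene's own strand, with any half-site match in capitals. All 5 windows are on the minus strand.

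Bex1 (chrX:136215464-136215763): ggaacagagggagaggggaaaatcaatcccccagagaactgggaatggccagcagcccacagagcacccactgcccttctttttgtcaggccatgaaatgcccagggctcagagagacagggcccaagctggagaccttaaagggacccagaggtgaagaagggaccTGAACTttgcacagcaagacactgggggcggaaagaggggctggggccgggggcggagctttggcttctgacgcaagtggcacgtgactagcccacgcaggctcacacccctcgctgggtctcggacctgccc
Gda (chr19:21472612-21472911): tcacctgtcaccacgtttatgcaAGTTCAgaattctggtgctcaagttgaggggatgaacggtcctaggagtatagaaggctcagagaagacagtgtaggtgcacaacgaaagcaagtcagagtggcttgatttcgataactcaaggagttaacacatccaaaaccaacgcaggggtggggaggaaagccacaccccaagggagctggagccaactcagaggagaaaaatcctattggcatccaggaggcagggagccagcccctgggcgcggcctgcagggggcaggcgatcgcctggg
Lztfl1 (chr9:123717576-123717875): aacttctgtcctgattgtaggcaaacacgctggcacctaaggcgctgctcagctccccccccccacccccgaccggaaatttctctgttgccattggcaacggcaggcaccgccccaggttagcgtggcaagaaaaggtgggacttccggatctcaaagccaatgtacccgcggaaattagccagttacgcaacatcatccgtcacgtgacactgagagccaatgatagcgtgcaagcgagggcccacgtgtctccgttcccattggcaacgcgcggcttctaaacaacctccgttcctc
Hic1, first window (chr11:75168103-75168402): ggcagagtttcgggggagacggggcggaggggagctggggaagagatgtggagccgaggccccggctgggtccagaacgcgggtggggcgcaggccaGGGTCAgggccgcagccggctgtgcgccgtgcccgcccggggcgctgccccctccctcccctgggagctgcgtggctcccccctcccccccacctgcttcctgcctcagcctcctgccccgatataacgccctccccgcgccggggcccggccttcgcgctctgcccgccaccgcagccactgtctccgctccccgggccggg
Hic1, second window (chr11:75170206-75170505): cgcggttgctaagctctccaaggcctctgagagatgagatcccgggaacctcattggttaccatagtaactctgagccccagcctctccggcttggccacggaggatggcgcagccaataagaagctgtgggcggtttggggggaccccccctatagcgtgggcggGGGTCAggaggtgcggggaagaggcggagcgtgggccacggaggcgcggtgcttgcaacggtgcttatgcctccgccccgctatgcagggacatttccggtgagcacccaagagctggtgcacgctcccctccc

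The capitals in Bex1 begin 83 bases before the start and are a minus-strand match to AGTTCA, and those in Gda begin 227 bases before it and are a plus-strand match to the same letters. The capitals in Hic1 are GGGTCA at 153 and 84 bases before the start of its 2 windows. The Lztfl1 window held no match. The windows differ in make-up, from 2 CpG and 38.7% GC in Csn2 to 49 CpG and 81.0% GC in Cracdl, against a median of 7 CpG and 52.7% GC over all windows. A match is a string of letters and not a measured site, and no match says only that these letters are not in this window.

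In the co-culture with Sp-DC, all 10 genes were higher on average with retinoic acid than without it, in Foxp3+ cells and in Foxp3- cells. This is the difference they were picked for, so it is described with no test. Differences in Foxp3+ cells ran from 0.92 for Hic1 to 3.48 for Bex1 on the log2 scale, and in Foxp3- cells from 0.77 for Hic1 to 3.83 for Bex1. Among 11846 genes ordered by the size of the rise in Foxp3+ cells, 9 of the 10 stood between place 2 (Bex1) and place 25 (Grtp1), and Hic1 stood at place 97. The model called 1.12% of all genes tested in Foxp3+ cells and 0.262% in Foxp3- cells with the array number as a block, and 0.101% and 0.00844% without it. The 5 markers of CD8 T and natural killer cells summed to 1929.2 to 1962.0 intensity units in Sp-DC plus RA Foxp3+ cells and 3802.0 to 4561.5 in Sp-DC Foxp3+ cells, and to 3205.7 in Sp-DC plus RA Foxp3- cells and 5952.2 to 6761.1 in Sp-DC Foxp3- cells. Klrd1 and Nkg7 were the brightest of the 5 on every co-culture array, and Cd8b1 and Ncr1 lay below the array median on all of them. The part of these markers in the differences of the 10 genes was not tested.

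**Figure D1:**
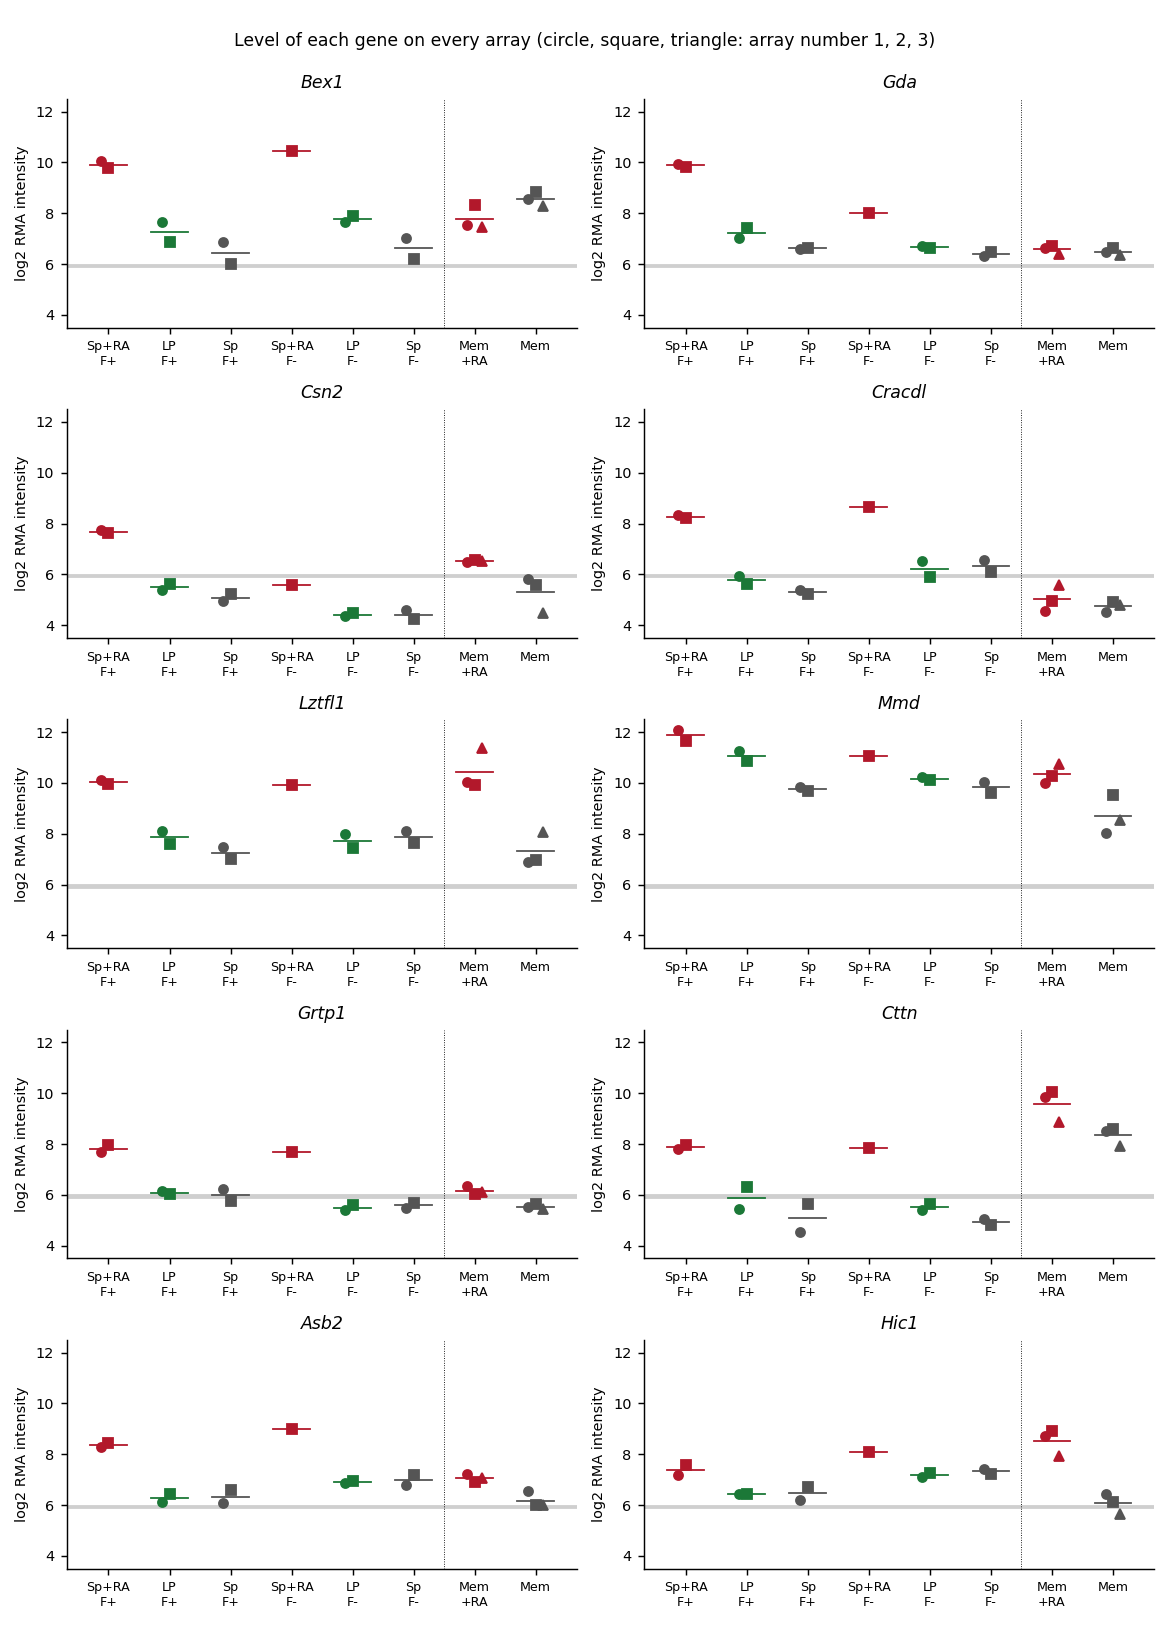
Log2 RMA intensity (vertical axis) of each of the 10 genes in a panel of its own, with 1 symbol per array (circle, square and triangle for arrays numbered 1, 2 and 3), a line at the group mean and a grey band over the range of array medians, 5.88 to 5.98. Groups run along the horizontal axis, with Sp+RA, LP and Sp for the Sp-DC plus RA, LP-DC and Sp-DC cultures, F+ and F- for Foxp3+ and Foxp3- cells, and Mem+RA and Mem for memory cells with and without retinoic acid. In the co-culture the group means with retinoic acid stand above those of Sp-DC of the same sort in every panel. In memory cells Bex1 lies lower with retinoic acid and the Gda and Cracdl groups overlap.

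Bex1, a small adaptor protein of neurons linked to neurotrophin receptor signalling, read 10.04 and 9.78 in Sp-DC plus RA Foxp3+ cells, 7.66 and 6.86 in LP-DC Foxp3+ cells, and 6.86 and 6.01 in Sp-DC Foxp3+ cells. In Foxp3- cells it read 10.45 with retinoic acid, 7.65 and 7.91 with LP-DC, and 7.03 and 6.22 with Sp-DC. The retinoic acid arrays stood far over those of Sp-DC in both sorts, the largest difference in the set at 11.2-fold in Foxp3+ and 14.2-fold in Foxp3- cells.

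Gda, guanine deaminase, which turns guanine into xanthine, read 9.94 and 9.83 in Sp-DC plus RA Foxp3+ cells, 7.03 and 7.43 with LP-DC, and 6.60 and 6.64 with Sp-DC. In Foxp3- cells it read 8.01 on the 1 array with retinoic acid, 6.71 and 6.63 with LP-DC, and 6.32 and 6.48 with Sp-DC. The difference with retinoic acid was 3.27 in Foxp3+ cells and 1.60 in Foxp3- cells.

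Csn2, beta-casein, a milk protein of the mammary gland, had a similar shape, with 7.74 and 7.62 in Sp-DC plus RA Foxp3+ cells, 5.39 and 5.61 with LP-DC, and 4.95 and 5.23 with Sp-DC. Its Foxp3- readings were 5.56 with retinoic acid, 4.35 and 4.47 with LP-DC, and 4.59 and 4.24 with Sp-DC. Of the 11 co-culture arrays, the 2 of Sp-DC plus RA Foxp3+ cells alone lay above their array median, which is also how Csn2 passed the filter, so its other levels are under the bulk of the array. The 4 mammary genes listed as markers (Csn1s1, Csn3, Wap and Lalba) summed to 245.9 to 286.8 intensity units in Sp-DC plus RA Foxp3+ cells and 248.0 to 260.7 in Sp-DC Foxp3+ cells, and neither of the 2 that were tested was called in the comparison.

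Cracdl, a relative of a regulator of actin filament capping and named 2010300C02Rik in older annotation, read 8.32 and 8.21 in Sp-DC plus RA Foxp3+ cells, 5.93 and 5.62 with LP-DC, and 5.40 and 5.25 with Sp-DC. Among Foxp3- cells the readings were 8.64 with retinoic acid, 6.54 and 5.92 with LP-DC, and 6.55 and 6.08 with Sp-DC. Its differences with retinoic acid were 2.95 and 2.33 in Foxp3+ and Foxp3- cells.

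Lztfl1, a leucine zipper protein that controls the BBSome, the cargo adaptor of cilia, and is known to rise with retinoic acid in human CD4 T cells, read 10.12 and 9.95 in Sp-DC plus RA Foxp3+ cells. It read 8.12 and 7.59 in LP-DC Foxp3+ cells and 7.48 and 7.01 in Sp-DC Foxp3+ cells. In Foxp3- cells the readings were 9.92 with retinoic acid, 8.0 and 7.43 with LP-DC, and 8.10 and 7.64 with Sp-DC. The difference was 2.79 in Foxp3+ cells and 2.05 in Foxp3- cells. Both LP-DC Foxp3+ arrays lay above both Sp-DC Foxp3+ arrays. The Foxp3- arrays of these cultures overlapped on this probe set, but not on sets 1460200_s_at and 1435514_at, where LP-DC was higher.

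Mmd, a membrane protein of the progestin and adipoQ receptor family first found in maturing macrophages, had the largest difference between LP-DC and Sp-DC Foxp3+ cells. It read 12.10 and 11.65 in Sp-DC plus RA Foxp3+ cells, 11.27 and 10.88 in LP-DC Foxp3+ cells, and 9.84 and 9.67 in Sp-DC Foxp3+ cells. In Foxp3- cells it read 11.06 with retinoic acid, 10.21 and 10.11 with LP-DC, and 10.04 and 9.62 with Sp-DC.

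Grtp1, a TBC-domain protein of the family that switches off Rab GTPases, read 7.68 and 7.95 in Sp-DC plus RA Foxp3+ cells, 6.16 and 6.02 with LP-DC, and 6.21 and 5.77 with Sp-DC. Its Foxp3- readings were 7.70 with retinoic acid, 5.40 and 5.59 with LP-DC, and 5.49 and 5.70 with Sp-DC. Its differences with retinoic acid were 1.82 in Foxp3+ and 2.11 in Foxp3- cells, and the LP-DC and Sp-DC arrays overlapped in both sorts.

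Cttn, cortactin, which stabilises branched actin, read 7.82 and 7.95 in Sp-DC plus RA Foxp3+ cells, 5.46 and 6.32 with LP-DC, and 4.55 and 5.65 with Sp-DC. Among Foxp3- cells the readings were 7.83 with retinoic acid, 5.40 and 5.66 with LP-DC, and 5.05 and 4.82 with Sp-DC. The Sp-DC arrays lay below their array medians, and the differences with retinoic acid were 2.79 in Foxp3+ and 2.90 in Foxp3- cells.

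Asb2, the substrate-binding part of a ubiquitin ligase that targets filamins and a known retinoic acid gene of human leukaemia cells, and Hic1, a zinc finger repressor, both read lower in Foxp3+ than in Foxp3- cells of each culture. Asb2 read 8.29 and 8.43 in Sp-DC plus RA Foxp3+ cells, 6.12 and 6.43 with LP-DC, and 6.08 and 6.58 with Sp-DC. In Foxp3- cells Asb2 read 8.99 with retinoic acid, 6.89 and 6.96 with LP-DC, and 6.79 and 7.17 with Sp-DC. At every culture its Foxp3+ arrays were below its Foxp3- arrays.

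Hic1 read 7.20 and 7.57 in Sp-DC plus RA Foxp3+ cells, 6.44 and 6.45 with LP-DC, and 6.21 and 6.72 with Sp-DC. In Foxp3- cells it read 8.09 with retinoic acid, 7.09 and 7.26 with LP-DC, and 7.43 and 7.22 with Sp-DC. Its rise with retinoic acid, 0.92 and 0.77, was the smallest of the set in both sorts.

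The memory experiment used other cells, another stimulus and a shorter culture. The co-culture difference used to choose the genes holds none of its arrays, so its test does not reuse that difference. The genes were still chosen with earlier results of these data known, so the test is not fully independent of the choice. Csn2 and Grtp1 passed the filter on low values through the retinoic acid arrays alone, which favours a difference, so they are described apart. Of the other 7 genes tested in memory CD4 cells, 5 were higher with retinoic acid, among them Lztfl1 by 8.68-fold and Hic1 by 5.50-fold, Bex1 was lower by 1.70-fold, and Gda did not pass the test. These calls come from limma with the array number as a block, at a Benjamini-Hochberg adjusted p below 0.05 over 12062 genes, where 4.94% of all genes were called (2.6% higher and 2.34% lower). Without the block limma called 0 of the 9, against 0.0829% of all genes. An unadjusted p below 0.05 was found for 8 of the 9, Csn2 and Grtp1 included, and for 495 of the 12062 genes. The labels' numbers pair these arrays (correlations of same-numbered residuals between 0.65 and 0.94), and with the pair numbered 3 left out 3 of the 9 remained called with the block, Lztfl1, Hic1 and Cttn. The median difference over the 9 that passed the filter, Csn2 and Grtp1 included, was 1.24, against -0.00 over all 12062 genes, and is given as a description.

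**Figure D2:**
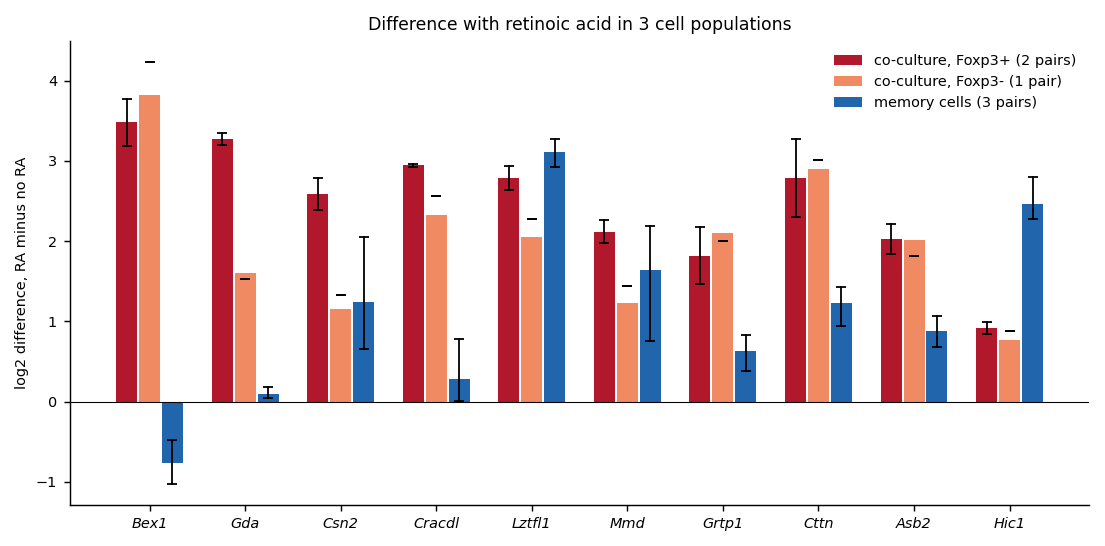
Bars give the log2 difference of means, with retinoic acid minus without it (vertical axis), for each of the 10 genes (horizontal axis) in co-culture Foxp3+ cells, co-culture Foxp3- cells and memory cells. Whiskers span the differences of same-numbered array pairs (2 in Foxp3+ and 3 in memory cells), and a single dash marks the 1 pair in Foxp3- cells. Lztfl1 and Hic1 have the tallest memory cell bars, at 3.12 and 2.46, and Bex1 is at -0.77 in memory cells and at 3.48 in Foxp3+ cells.

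Lztfl1 read 10.04, 9.91 and 11.36 in memory cells with retinoic acid, against 6.88, 6.99 and 8.08 without it. The groups did not overlap, and both arrays numbered 3 were the high ones of their group. The difference was 3.12 ± 0.13 (SE, n = 3 pairs), with a limma adjusted p of 5.68e-06 with the block and 0.122 without it, and it stood at place 4 of all genes tested when ordered by the size of the rise.

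Hic1 read 8.73, 8.93 and 7.92 in memory cells with retinoic acid, against 6.42, 6.13 and 5.64 without it. The lowest array with retinoic acid stood over the highest without it by more than the range of either group. The difference was 2.46 ± 0.15 (SE, n = 3 pairs), with a limma adjusted p of 2.94e-05 with the block and 0.0960 without it. The gene with the smallest difference of the set in the co-culture thus had the second largest in memory cells, and the difference between the experiments was not tested.

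Mmd read 10.01, 10.29 and 10.73 with retinoic acid, against 8.02, 9.54 and 8.54 without it, groups that did not overlap. Its difference was 1.65 ± 0.24 (SE, n = 3 pairs; limma adjusted p 0.00417 with the block, 0.452 without it). Cttn read 9.87, 10.03 and 8.87 with retinoic acid, against 8.52, 8.61 and 7.92 without it. The arrays numbered 3 were the low ones of both Cttn groups, and the difference was 1.24 ± 0.14 (SE, n = 3 pairs; limma adjusted p 0.00110 with the block, 0.653 without it).

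Asb2 read 7.24, 6.91 and 7.05 in memory cells with retinoic acid, against 6.56, 6.00 and 5.99 without it. The difference was 0.89 ± 0.14 (SE, n = 3 pairs; limma adjusted p 0.00489 with the block, 0.465 without it). Csn2 read 6.49, 6.58 and 6.53 with retinoic acid, against 5.84, 5.58 and 4.47 without it, and Grtp1 read 6.36, 6.02 and 6.12 with retinoic acid, against 5.53, 5.65 and 5.44 without it. Both lay above the array median with retinoic acid and on no array without it. The difference was 1.24 ± 0.23 for Csn2 and 0.63 ± 0.14 for Grtp1 (SE, n = 3 pairs each), given as a description, since the filter they passed depends on the retinoic acid arrays.

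Bex1 read 7.54, 8.34 and 7.48 in memory cells with retinoic acid, against 8.56, 8.82 and 8.27 without it. 1 array with retinoic acid lay above the lowest array without it, so the groups overlapped, but all 3 same-numbered pairs were lower with retinoic acid. It fell by 0.77 on the log2 scale (SE 0.14, n = 3 pairs; limma adjusted p 0.0153 with the block, 1.00 without it). The gene with the largest rise in the co-culture therefore moved the other way in memory cells.

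Gda read 6.65, 6.71 and 6.39 in memory cells with retinoic acid, against 6.47, 6.64 and 6.35 without it, a difference of 0.10 ± 0.13 (SE, n = 3 pairs; limma adjusted p 0.800 with the block, 1.00 without it). The groups overlapped and each of the 3 pairs was slightly higher. Cracdl read 4.55, 4.96 and 5.57 with retinoic acid, against 4.54, 4.91 and 4.79 without it, below the array median on all 6 arrays, so it was not tested. A change in Cracdl was not measurable at that level.

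Of the 31 marker genes measured for other cell types and for T cells, 19 were tested in memory cells and 5 were called with the block. They were Nkg7 (1.76) and Klrd1 (0.87) of natural killer and CD8 cells and Cd3e (0.57), all higher, and Batf3 (-0.81) of dendritic cells, lower. Cdh1 (1.89), which also marks epithelium, was higher too. Cdh1 read 3.86, 3.69 and 3.81 without retinoic acid and passed the filter through retinoic acid arrays alone, so its value is a description. Klrd1 also needed an array with retinoic acid to pass the filter. The 5 markers of CD8 T and natural killer cells summed to 880.0 to 1238.7 intensity units in memory cells with retinoic acid and 359.7 to 551.3 without it. Of these 5, Cd8a, Cd8b1 and Ncr1 lay below the array median on all memory arrays, so the higher sum comes from Nkg7 and Klrd1. The 5 epithelial markers summed to 167.9 to 208.0 with retinoic acid and 123.2 to 153.5 without it, and the 4 mammary markers to 245.3 to 317.6 with it and 237.1 to 317.3 without it. Their part in the differences of the 10 genes was not tested.

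**Figure D3:**
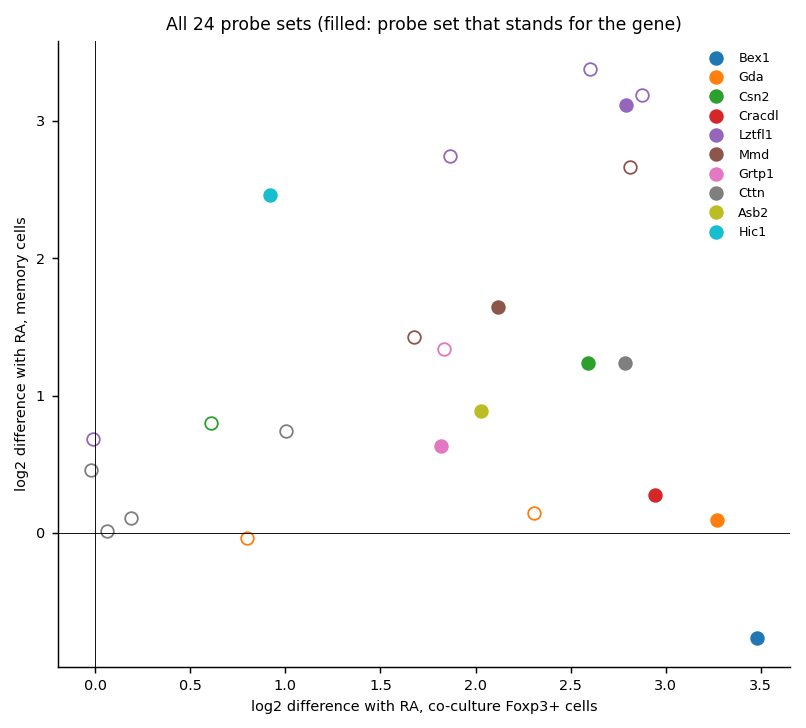
Each of the 24 probe sets of the 10 genes is a circle, at its log2 difference with retinoic acid in co-culture Foxp3+ cells (horizontal axis) and in memory cells (vertical axis), coloured by gene and filled for the probe set that stands for the gene. In memory cells the Lztfl1 sets lie between 2.74 and 3.38, apart from 1431323_at at 0.68, and the Cttn sets spread from 0.01 to 1.24.

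Several genes were read by more than 1 probe set, which differ in the stretch of transcript they bind. Adjusted over 25157 probe sets in memory cells, with the block, Lztfl1 sets 1417170_at (3.12) and 1460200_s_at (3.38) were called higher. All 3 Mmd sets were called higher too, with differences of 1.43 to 2.67. Lztfl1 sets 1435514_at (3.19) and 1428974_s_at (2.74) needed arrays with retinoic acid to pass the filter, which favours a difference. Their values are given as a description. The fifth Lztfl1 set, 1431323_at, lay below the array median and was not tested. Without the block, Lztfl1 set 1460200_s_at was called at a limma adjusted p of 0.0187. Set 1428974_s_at had a limma adjusted p of 0.0332 there, with the limit of the filter given above. The set 1460200_s_at read 11.58, 11.05 and 11.07 with retinoic acid, against 7.89, 8.08 and 7.60 without it. Its arrays numbered 3 did not stand above the others, as they did for 1417170_at, the set that stands for the gene above.

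For Cttn, 1433908_a_at (1.24) and 1423917_a_at (0.74) were called higher with the block, 1421315_s_at (0.11) was not, and 1421314_at and 1421313_s_at lay below the median. 1421314_at read between 2.70 and 3.09 on all 17 arrays. Csn2 set 1420370_s_at gave 0.80 in memory cells, with all 3 pairs higher, and Grtp1 set 1439150_x_at, of the kind that may bind other transcripts, gave 1.34. For Grtp1 the set used above, 1425891_a_at, missed the threshold over all probe sets (limma adjusted p 0.0782 with the block). In the co-culture, Gda set 1435749_at read 8.54 and 7.13 in Sp-DC plus RA Foxp3+ cells and 5.67 and 5.39 in Sp-DC Foxp3+ cells, and 1422868_s_at stayed at or below 4.81 on all arrays. Cttn set 1423917_a_at differed by 1.00 with retinoic acid in co-culture Foxp3+ cells, against 2.79 for 1433908_a_at. The other Cttn sets, 1421315_s_at, 1421314_at and 1421313_s_at, differed by 0.19, 0.06 and -0.02 there. Csn2 set 1420370_s_at differed by 0.61 in Foxp3+ and 0.03 in Foxp3- cells, against 2.59 and 1.15 for 1420369_a_at.

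The LP-DC arrays were not part of the choice either, but their Foxp3 sort was tested in 1 fit over all co-culture arrays, so its spread and block also draw on arrays used for the choice. Mmd was higher and Asb2 was lower in Foxp3+ than in Foxp3- cells, by 1.88- and 1.57-fold, with the array number as a block. Csn2 was called higher too, but it passed the filter through the Sp-DC plus RA Foxp3+ arrays alone and lay below the array median on all 4 LP-DC arrays. With Csn2 that is 3 of 10 called, against 3.58% of all 11846 genes (2.4% higher and 1.18% lower), and without the block limma called 0 of 10, against 0.135%, with 6 of 10 and 714 of 11846 genes at an unadjusted p below 0.05. The co-culture numbers pair the arrays as well, with correlations of residuals between 0.45 and 0.75. The call set rested on single arrays, since without the LP-DC Foxp3- array numbered 1 none of the 10 was called, and without either LP-DC Foxp3+ array 1 was. Without either Sp-DC Foxp3- array 2 were called, and without either Sp-DC Foxp3+ array 4 were.

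**Figure D4:**
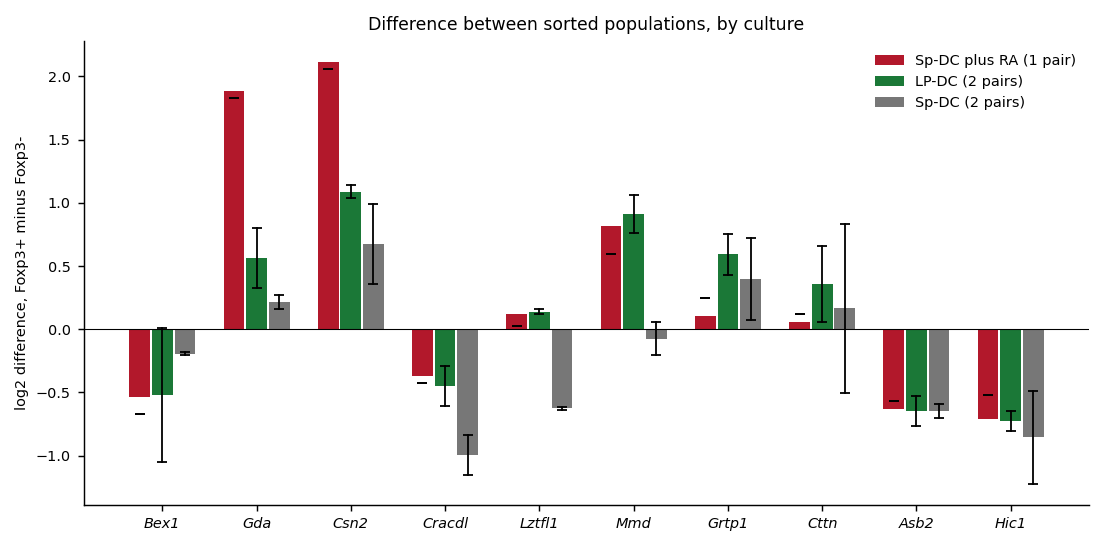
Bars give the log2 difference of means, Foxp3+ minus Foxp3- cells (vertical axis), for each of the 10 genes (horizontal axis) in the Sp-DC plus RA, LP-DC and Sp-DC cultures. Whiskers span the 2 same-numbered array pairs, and a single dash marks the 1 pair of the Sp-DC plus RA culture. Csn2 and Gda have the tallest bars, 2.12 and 1.88 with retinoic acid, and the Bex1, Cracdl, Asb2 and Hic1 bars lie below 0 in all 3 cultures.

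In LP-DC cells Csn2 differed by 1.09 ± 0.17 (SE), given as a description. Mmd differed by 0.91 ± 0.14 (SE; limma adjusted p 0.00647 with the block) on arrays far above the median. Adjusted over 24584 probe sets, Mmd set 1423488_at gave 0.76 (limma adjusted p 0.0129 with the block). The remaining Mmd set, 1435645_at, gave 0.45 and was not called (limma adjusted p 0.708 with the block), and its groups overlapped. Asb2 fell by 0.65 (SE 0.14; limma adjusted p 0.0358 with the block), and Hic1, at -0.73 ± 0.17, missed the threshold at 0.0573. Under quantile normalization with the block, Asb2 missed the threshold (limma adjusted p 0.0595) and Hic1 passed it (limma adjusted p 0.0329). The other members gave differences from -0.52 for Bex1 to 0.59 for Grtp1, none of them called. The 5 CD8 T and natural killer markers summed to 1408.2 to 1917.6 intensity units in LP-DC Foxp3+ cells and 4252.3 to 5479.9 in LP-DC Foxp3- cells, and Cd8a, Klrd1 and Cdh1 were called lower. Their part in these differences was not tested.

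The mean Foxp3+ minus Foxp3- difference over the 3 cultures brings in the arrays that served to choose the genes, so it is given as a description with no test. In the model with the block it was 0.90 for Gda, 1.30 for Csn2, 0.50 for Mmd, 0.37 for Grtp1 and 0.26 for Cttn. It was -0.66 for Cracdl, -0.59 for Asb2, -0.74 for Hic1, -0.50 for Bex1 and -0.20 for Lztfl1. As background, that model called 4.79% of all genes, and the model without the block called 0.92%. The Gda and Csn2 values rest mainly on the Sp-DC plus RA culture, where they differed by 1.88 and 2.12, compared with 0.56 and 1.09 with LP-DC and 0.22 and 0.67 with Sp-DC.

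Foxp3+ cells cultured with LP-DC and no added retinoic acid stood between the other cultures for 8 of the 10 genes, and Foxp3- cells did for 4 of 10, in values that share their arrays with the difference used for the choice and so carry no test. In Foxp3+ cells, LP-DC arrays averaged 1.32 over Sp-DC arrays for Mmd, 0.82 for Bex1, 0.79 for Cttn, 0.61 for Gda and 0.61 for Lztfl1. Asb2 and Hic1 were at -0.06 and -0.02, at the level of Sp-DC. Against Sp-DC plus RA Foxp3+ cells, the LP-DC Foxp3+ cells were lower for all 10, from -0.80 for Mmd to -2.66 for Bex1 and Gda. In Foxp3- cells LP-DC stood 1.15 over Sp-DC for Bex1 and 0.60 for Cttn, and between -0.15 and 0.33 for the other 8. The dendritic cell markers summed to 1489.5 to 1494.2 intensity units in LP-DC Foxp3+ cells and 1878.6 to 2626.2 in Sp-DC Foxp3+ cells. The CD8 T and natural killer markers summed to 1408.2 to 1917.6 units in LP-DC Foxp3+ cells and 3802.0 to 4561.5 in Sp-DC Foxp3+ cells. The part of either list in these values was not tested.

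A list made with earlier results known held 53 genes related to the members by family or function. Of the 39 tested in memory cells, 2 were higher with the block and 0 lower, with a median of -0.00, and without the block 0 were called. This share is close to the 4.94% of all genes called, so nothing is read from it. The 2 were Bbip1 (0.58), a subunit of the BBSome that Lztfl1 controls, and Xdh (1.29). Xdh is xanthine dehydrogenase, which acts on the xanthine that guanine deaminase makes. It needed arrays with retinoic acid to pass the filter on low values, which favours a difference. Hic2, the closest relative of Hic1, gave 0.21, Hcls1, the blood cell relative of cortactin, gave 0.19, and Bex3 gave -0.00, none called. The caseins Csn1s1 and Csn3 gave 0.11 and 0.05. In the LP-DC Foxp3 sort 1 of 37 was called with the block, Bbs9 of the BBSome, which was lower in Foxp3+ cells (-1.19), against 3.58% of all genes.

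Of 30 genes of retinoid uptake, metabolism, receptors and co-regulators, 25 were measured and 16 tested in memory cells. With the block 4 were higher and 0 lower, against 2.6% and 2.34% of all genes. Without the block 0 were called, against 0.0829%. The 4 were Dhrs3 (2.63), which reduces retinaldehyde, Nrip1 (2.59), a co-repressor of nuclear receptors, Cyp26b1 (1.49) and Stra6 (1.15). Cyp26b1 breaks down retinoic acid and Stra6 is a retinol transporter. Stra6 needed arrays with retinoic acid to pass the filter on low values, which favours a difference. None of the 4 receptor genes tested was called, Rarb standing at -0.14 and Rarg at -0.02. Rxra read 6.68, 6.79 and 6.69 with retinoic acid, against 7.16, 7.22 and 7.11 without it, lower in each same-numbered pair. Rxrb read 9.4, 9.5 and 8.5 with it, against 9.3, 9.0 and 8.5 without it.

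Over the 17 arrays, after each experiment's mean was taken off, the genes outside the set whose pattern was most like the members' average were Cyp26b1 (Pearson r = 0.97), Ccr9 (0.95), Dkk3 (0.93), Lig1 (0.88) and Dhrs3 (0.87), among 11432 genes tested in both experiments. Ccr9 is a gut-homing chemokine receptor, Dkk3 a secreted protein of the Dickkopf family, and Lig1 a DNA ligase. Correlation of the members with their own average ran from 0.61 for Hic1 to 0.94 for Cttn. The arrays share groups and the co-culture difference used for the choice, so these values describe the set and carry no test. Within the 11 co-culture arrays Hic1 correlated best with Asb2 (0.86) and least with Csn2 (0.18), and Gda correlated best with Csn2 (0.97).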

How the data were processed

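The authors hybridised amplified RNA to Affymetrix M430v2 arrays and computed robust multi-array average (RMA) values in GenePattern, per the series' design text, and the deposited table holds them as linear intensity. RMA subtracts background, equalises arrays and summarises probes, so low values are compressed and no value is 0. The RMA version is not given in the sources used here. Here log2 of each deposited intensity was taken with no pseudocount (log2 scale throughout), and no further normalization was applied. The number of arrays limits the precision.

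The platform's table gave gene symbols to probe sets (34958 with 1 symbol, 932 with several, 9211 with none). For each gene the brightest probe set on average over the 17 arrays stands for it, and sets marked as cross-hybridising (_x_at) were used only for lack of another. An experiment's test took the genes that exceeded the median of the array on 2 or more of its arrays. limma 3.58.1 (R 4.3.3) was fitted once per experiment, with Benjamini-Hochberg adjustment over all genes tested and a threshold of 0.05. Without the array number, residual degrees of freedom were 4 in the memory and 5 in the co-culture model, joined by priors of 2.59 and 3.19. With the number as a block they were 2 and 4, with priors of 7.23 and 5.56. The design named the fit without the block. Since the labels number the arrays and residuals of same-numbered arrays correlated above 0.1 in every pair of groups checked (0.45 to 0.75 in the co-culture, 0.65 to 0.94 in memory cells), the numbers pair the arrays and both fits are given. Co-culture groups of 2 arrays give the same correlation for both numbers. The scripts were tested on simulated data.

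The 10 genes and the lists of relatives, retinoid genes and markers were chosen with earlier results of these data known. All 10 genes are named, with Rarb, Cyp26b1, Dhrs3, Nrip1 and the other retinoid genes and relatives called in a test, and the 5 genes nearest in pattern. Rarg, Rxra, Rxrb, Hic2, Hcls1, Bex3, Csn1s1, Csn3 and the markers were named after their values were seen. The settings varied were the normalization (quantile, median-centred), the filter (none, or the 60th percentile), an added constant of 32 before log2, averaging a gene's probe sets, trended and robust variance, 1 fit over all 17 arrays, the block, and each array left out. Repeats of some of these with the block were chosen after seeing the data. Promoter windows are RefSeq's for GRCm38.p6.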

Additional observations from a re-analysis of the deposited data

Results flagged for a closer look

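For 4 pairs of comparisons every same-numbered pair of arrays moved one way in the first comparison and the opposite way in the second. None of these differences between comparisons was tested. Bex1 differed by -0.77 with retinoic acid in memory cells (higher in 0 of 3 pairs), while in the co-culture it differed by 3.48 in Foxp3+ cells (higher in 2 of 2 pairs) and by 3.83 in Foxp3- cells (higher in 1 of 1 pair). Lztfl1 differed between Foxp3+ and Foxp3- cells by 0.14 with LP-DC (higher in 2 of 2 pairs) and by -0.62 with Sp-DC (higher in 0 of 2 pairs). Cracdl differed between LP-DC and Sp-DC by 0.46 in Foxp3+ cells (higher in 2 of 2 pairs) and by -0.08 in Foxp3- cells (higher in 0 of 2 pairs). Lztfl1 differed between LP-DC and Sp-DC by 0.61 in Foxp3+ cells (higher in 2 of 2 pairs) and by -0.15 in Foxp3- cells (higher in 0 of 2 pairs). The co-culture values of Bex1 are the difference used to choose the genes, and the other 3 pairs of comparisons use its Sp-DC arrays. Groups hold at most 3 arrays, so single arrays were not tested as outliers.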

How the results depend on the processing

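The number of genes called for retinoic acid in memory cells was 0 of 9 as designed and 8 of 9 with the replicate block. It was 3 of 9 in 1 fit over all 17 arrays and 1 of 8 with the mean of all probe sets. With the block it was 8 of 9 under quantile normalization, 8 of 10 with no filter and 8 of 8 with the mean of all probe sets. With single arrays left out it ran from 3 to 8 of 9 with the block (0 to 0 without it). The 8 with the replicate block include Bex1, which was lower, and Csn2 and Grtp1, which passed the filter through the retinoic acid arrays alone. With Csn2 and Grtp1 set aside 7 genes were left, of which 5 were called higher and 1 lower with the block. Over all genes the calls numbered 10 as designed, 596 with the block, 208 with the block and without a number 3 array, and 78 in the fit over all arrays. For the LP-DC Foxp3 sort 0 genes of the 10 were called as designed and 3, Csn2 included, with the block, with 0 to 0 and 0 to 4 when single arrays were left out. All genes called in that sort numbered 16 as designed, 424 with the block, 48 under quantile normalization, 33 with the filter at the 60th percentile and 37 with the mean of all probe sets. For the mean Foxp3 sort 3 were called as designed and 6 with the block (568 against 109 of all genes), with 1 to 3 and 6 to 7 when arrays were left out, the 1 being without the Sp-DC Foxp3- array numbered 1. The mean sort has no value without the 1 Sp-DC plus RA Foxp3- array. The direction reversed for Lztfl1 in the mean sort with the mean of all probe sets (0.082, and 0.030 with the block, against -0.12 and -0.20). In the LP-DC sort, with single arrays left out, Cttn ran from -0.072 to 0.79 and Lztfl1 from -0.15 to 0.42, with -0.13 in between. The cause was not tested. Low signal limits Csn2, Cracdl and Grtp1.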
